A study of Mus musculus with 18 samples.

Results

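The small leucine-rich proteoglycans are secreted matrix proteins built from a short core of leucine-rich repeats, most of which carry sugar chains. 9 genes of the family, Lum, Dcn, Bgn, Fmod, Kera, Prelp, Ogn, Omd and Aspn, were taken by name, by a rule that holds no measured value. All 9 were found among the 47728 gene rows of the bulk count tables and in the gene tables of the single-cell samples.

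Members of this family sit on collagen fibrils through the inner face of their curved core, where they set fibril width and spacing, and several bind growth factors such as TGF-beta or signal to cell surface receptors. The class I genes Dcn and Bgn encode decorin and biglycan, whose cores carry chondroitin or dermatan sulfate chains, and Aspn encodes asporin, which lacks the site for such a chain. The class II genes Fmod, Lum, Kera, Prelp and Omd encode fibromodulin, lumican, keratocan, PRELP and osteomodulin, several of which carry keratan sulfate. The class III gene Ogn encodes osteoglycin, also called mimecan. In skeletal muscle these proteins are best known from the connective tissue around fibres and from tendon, and decorin binds myostatin, a growth factor that restrains muscle growth.

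RNA was sequenced from mouse myogenic progenitors of 5 groups, with 3 bulk libraries each. iPax7 and iPax3 were progenitors made from embryonic stem cells, a pluripotent stem cell (PSC): Vcam1+Flk1- cells were sorted from embryoid bodies and expanded for 3 passages with doxycycline (Dox) and bFGF. These 2 groups carry no strain or age label, and the labels give both the same growth conditions. Emb were embryonic myoblasts at E10.5 and Fet were fetal myoblasts at E14.5, both from mice labelled My5Cre Rosa26YFP, a Cre allele with a YFP reporter. Neo were labelled neonatal satellite cells, from hindlimb muscles of Pax7-ZsGreen mice at postnatal day 3. Single-cell RNA was available for iPax3 cells and for adult satellite cells of the tibialis anterior of Pax7-ZsGreen mice at 3 months. No label says whether replicates came from separate cultures, litters or animals, so a p-value measures the spread between these libraries, which may be technical. Cells that had been engrafted and re-isolated were not analysed here.

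Library totals ran from 516504 counts (Fet replicate 1) to 56275318 counts (iPax3 replicate 1), with 12850 to 22814 genes detected. Levels are given as CPM, the count scaled to a common library size by TMM. The library labelled iPax7 replicate 1 stood apart: 8 pluripotency markers summed to 4534 CPM in it and to 3.64 to 27.75 CPM in the other 5 PSC-derived libraries, while 12 myogenic markers summed to 75.1 CPM against 1202 to 2048 CPM. In Neo, Pax7 was at 0.495, 4.08 and 5.12 CPM although the strain carries a Pax7 reporter, while 12 endothelial markers were high there. Those markers summed to 30.5 to 161.9 CPM in iPax7, 21.5 to 27.2 CPM in iPax3, 11.3 to 71.1 CPM in Emb, 264.6 to 535.3 CPM in Fet and 2756 to 3628 CPM in Neo. In bulk libraries, fewer cells of a type and less RNA per cell cannot be told apart.

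In the annotation (GRCm38), 8 of the 9 genes lie in 3 groups of neighbouring family members. On chromosome 10, Dcn (chr10:97479609-97518143), Lum (chr10:97565128-97572703) and Kera (chr10:97606879-97613692) follow one another on the plus strand, with gaps of 46985 and 34176 bases, and the class III gene Epyc comes next. On chromosome 13, Aspn (chr13:49544443-49567565), Omd (chr13:49582462-49592822) and Ogn (chr13:49608046-49624501) follow Ecm2, another class I gene, also on the plus strand, with gaps of 14897 and 15224 bases. Prelp (chr1:133910304-133921414, minus strand) and Fmod (chr1:134037254-134048277, plus strand) are 115840 bases apart on chromosome 1. Bgn (chrX:73483602-73495933, plus strand) has no family member beside it. An antisense gene, Gm15851, covers 9.68% of the exon bases of Prelp, and since the strand setting of the counting is not given, its reads cannot be told apart from those of Prelp.

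Promoters of 7 of the 9 genes were in the RefSeq table (GRCm38.p6), each as 250 bases before to 50 bases after the start that RefSeq gives; Lum and Dcn had no entry. The RefSeq starts of Ogn and Kera are not those of the gene coordinates above, and the Kera stretch lies inside its gene as annotated there. 4 are printed below: Ogn and Bgn, the members with the highest levels in the PSC-derived groups, and Kera and Aspn, which were far lower in every PSC-derived library than in any Fet or Neo library. They run 5′ to 3′ on the plus strand, with each E-box (CANNTG, the core bound by Myod1, Myog and other helix-loop-helix factors) in capitals:
Ogn, chr13:49607765-49608064: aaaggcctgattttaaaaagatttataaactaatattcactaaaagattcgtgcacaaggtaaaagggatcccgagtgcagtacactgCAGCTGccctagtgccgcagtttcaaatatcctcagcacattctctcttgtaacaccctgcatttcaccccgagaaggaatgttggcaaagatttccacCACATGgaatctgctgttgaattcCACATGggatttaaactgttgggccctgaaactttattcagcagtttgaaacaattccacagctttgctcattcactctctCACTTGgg
Bgn, chrX:73483351-73483650: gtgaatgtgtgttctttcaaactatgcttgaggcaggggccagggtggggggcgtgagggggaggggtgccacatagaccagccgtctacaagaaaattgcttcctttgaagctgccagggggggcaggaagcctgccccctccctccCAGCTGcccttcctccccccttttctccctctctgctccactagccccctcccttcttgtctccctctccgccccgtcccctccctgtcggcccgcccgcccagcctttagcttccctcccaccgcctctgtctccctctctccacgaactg
Kera, chr10:97606955-97607254: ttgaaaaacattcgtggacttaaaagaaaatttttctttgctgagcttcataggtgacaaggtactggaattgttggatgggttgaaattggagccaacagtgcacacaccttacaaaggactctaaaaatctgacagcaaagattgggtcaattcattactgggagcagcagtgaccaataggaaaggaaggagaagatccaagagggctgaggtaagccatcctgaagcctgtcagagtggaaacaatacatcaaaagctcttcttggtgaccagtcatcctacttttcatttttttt
Aspn, chr13:49544193-49544492: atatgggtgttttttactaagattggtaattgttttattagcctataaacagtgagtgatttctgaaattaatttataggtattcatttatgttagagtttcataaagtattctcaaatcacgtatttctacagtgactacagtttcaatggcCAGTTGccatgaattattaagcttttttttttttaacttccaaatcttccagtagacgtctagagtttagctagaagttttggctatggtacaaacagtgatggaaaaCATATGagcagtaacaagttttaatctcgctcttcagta
The Ogn promoter holds 4 E-boxes, 1 of them CAGCTG, and 2 matches to TATAAA. Its GC content is 42.3%, and 14.9% of 32851 mouse promoters are lower. The Bgn promoter holds 1 E-box, also CAGCTG, and 3 matches to GGGCGG, the GC box, at a GC content of 63.7%, and 79.1% of promoters are lower. Kera has no E-box at a GC content of 41%, and Aspn has 2 at 31%, with 2 matches to TATAAA, and only 1.28% of promoters have a lower GC content than Aspn. The Fmod and Prelp promoters hold 1 E-box each and that of Omd holds none. Both strands were searched, and CAGCTG matches are also counted as CANNTG. Of all promoters of this length, 72.3% hold CANNTG, 16.3% CAGCTG, 13.6% TATAAA and 35.7% GGGCGG, so an E-box in 5 of 7 members is a share near the background. A match describes the letters and does not show a bound site.

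The first question was how the family differs between PSC-derived progenitors (iPax7 and iPax3) and progenitors from tissue (Emb, Fet and Neo). The labels give passages in culture for the PSC-derived groups alone, so origin and culture cannot be told apart in this contrast. Of the 9 members, 7 were lower in PSC-derived cells and none was higher (edgeR's quasi-likelihood test, Benjamini-Hochberg adjusted p under 0.05 over 17571 genes; 11.7% of tested genes were called lower). The median log2 fold change of the 9 was -6.17, against 0.29 over all tested genes. Ogn and Omd were the members not called. Without the library labelled iPax7 replicate 1, 7 members were also called (25.5% of tested genes in either direction, against 28.1% with it). The libraries of the 2 kinds did not overlap for 2 of 9 members, Lum and Kera, as for 2.55% of tested genes lower in this way. All 9 members passed the filter on low counts. In the same contrast 11 of 12 endothelial, 10 of 14 fibroblast, 10 of 14 tendon and cartilage and 8 of 10 tested immune markers were lower too. So were 5 of 8 pericyte and smooth muscle and 6 of 8 neural markers. In these lists 1 fibroblast, 1 immune and 1 pericyte and smooth muscle marker were higher. Higher too were 4 of 12 myogenic, 5 of 6 tested pluripotency and 4 of 6 tested epithelial and mesothelial markers (16.4% of tested genes were). The library labelled iPax7 replicate 1 held 4534 CPM of the pluripotency markers. The other PSC-derived libraries held 3.64 to 27.75 CPM, against 9.49 to 58.8 CPM in Emb. In iPax3 alone, 0 of 6 pluripotency markers were called against Emb, Fet or Neo. The myogenic list holds Vcam1, which the PSC-derived sort selected for, and Pax3 and Pax7, after which these groups are named. Its count may thus partly follow from the design. The sort also took only Flk1- cells, so the endothelial count may partly follow from the design as well. The part of these cell types in the members' differences was not tested.

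**Figure D1:**
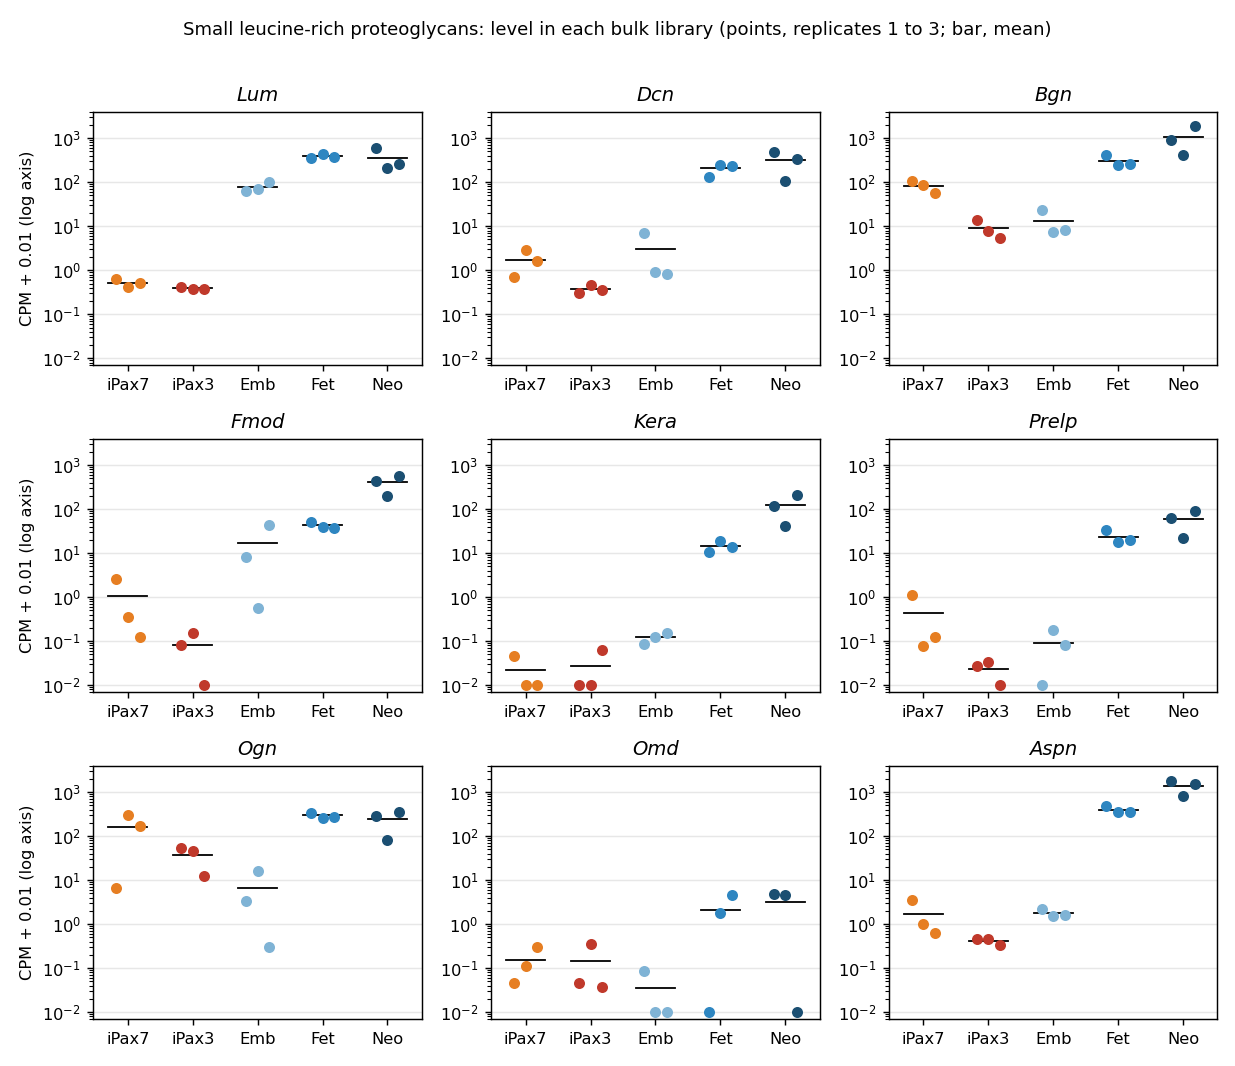
Level of each of the 9 genes in each bulk library, as CPM + 0.01 on a log axis, with 1 point per library, 3 libraries per group (iPax7, iPax3, Emb, Fet, Neo) and a bar at each group's mean. Lum and Kera are the members whose PSC-derived libraries all lie below all tissue libraries, and Ogn reaches 299.9 CPM in iPax7 and 54.2 CPM in iPax3.

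Among the class I genes, Dcn was low in both PSC-derived groups and at E10.5 and high from E14.5 on. It stood at 0.696, 2.87 and 1.59 CPM in iPax7, 0.298, 0.453 and 0.343 CPM in iPax3, 7.19, 0.915 and 0.809 CPM in Emb, 134.9, 244.5 and 238.2 CPM in Fet, and 495.3, 107.2 and 340.6 CPM in Neo. PSC-derived and tissue libraries overlapped, because 2 iPax7 libraries exceeded 2 Emb libraries, yet every Fet and Neo library was far above every other one. Dcn was lower in PSC-derived cells by a log2 fold change of -6.17 ± 0.61 (SE; adjusted p 3.4e-06). Against Emb alone, iPax3 was lower (log2 fold change -3.00 ± 0.80, adjusted p 0.018), with no call without Emb replicate 1, where it was -1.22 (adjusted p 0.18), or without any single iPax3 library (adjusted p 0.059 to 0.086; 0.0014 to 0.3 over all alternatives). iPax7 was not separated from Emb (-0.77 ± 0.74, adjusted p 0.52).

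Biglycan, from Bgn, was the class I gene with the highest level per kb of exon in both PSC-derived groups. iPax7 libraries held 103.9, 86.4 and 56.7 CPM and iPax3 libraries 13.8, 7.87 and 5.38 CPM, against 23.6, 7.32 and 8.02 CPM in Emb, 411.5, 240.4 and 256.3 CPM in Fet and 934.5, 415.7 and 1847 CPM in Neo. iPax7 lay above iPax3 and above Emb in every library and below Fet and Neo in every library, while iPax3 overlapped Emb. Bgn was higher in iPax7 than in Emb (log2 fold change 2.67 ± 0.55, adjusted p 0.0056) and showed no call for iPax3 over Emb (-0.52 ± 0.52, adjusted p 0.53). Below Fet, iPax3 passed (-5.06 ± 0.61, adjusted p 6.2e-05) and iPax7 did not (-1.87 ± 0.53, adjusted p 0.065), although no iPax7 library reached a Fet library. Against Neo both were lower, by -3.69 ± 0.57 in iPax7 (adjusted p 0.00046) and -6.88 ± 0.67 in iPax3 (adjusted p 3.8e-06).

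Asporin, from Aspn, which can block TGF-beta and sits on the same collagen site as decorin, had the widest range of the class. It was at 3.44, 0.980 and 0.626 CPM in iPax7, 0.455, 0.453 and 0.316 CPM in iPax3, 2.16, 1.54 and 1.62 CPM in Emb, 475.5, 353.2 and 345.8 CPM in Fet, and 1773, 827.1 and 1547 CPM in Neo. The PSC-derived libraries and Emb shared 1 low range and the Fet and Neo libraries were all far above it. The log2 fold change in PSC-derived cells was -6.87 ± 0.40 (adjusted p 1.1e-08). iPax3 was below Emb (-2.09 ± 0.50, adjusted p 0.01), with no overlap, and iPax7 was not (-0.05 ± 0.48, adjusted p 0.96).

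Lumican, from Lum, a keratan sulfate proteoglycan that spaces collagen fibrils in cornea and skin, was the member already abundant at E10.5. It was at 0.623, 0.405 and 0.512 CPM in iPax7 and 0.403, 0.358 and 0.369 CPM in iPax3, against 62.7, 69.6 and 102.5 CPM in Emb, 363.1, 442.7 and 381.2 CPM in Fet and 589.5, 210.9 and 257.3 CPM in Neo. No PSC-derived library came near a tissue library. The difference was the one with the smallest error of the 9 (log2 fold change -8.96 ± 0.34, adjusted p 9.8e-11), and it was called against each stage alone in iPax7 (-7.24 ± 0.46, -9.58 and -9.41 against Emb, Fet and Neo) and in iPax3 (-7.68 ± 0.46, -10.01 ± 0.50 and -9.85). Those comparisons share their tissue libraries and their PSC-derived libraries with one another.

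Fibromodulin, from Fmod, the class II protein of tendon and other fibrous tissue, was spread out most in Emb and highest in Neo. It was at 2.64, 0.338 and 0.114 CPM in iPax7, 0.0700, 0.143 and 0 CPM in iPax3, 8.19, 0.572 and 43.6 CPM in Emb, 50.2, 40.1 and 38.0 CPM in Fet, and 445.5, 198.3 and 565.7 CPM in Neo. Emb libraries were spread over nearly the whole range between iPax7 and Fet, so their mean of 17.4 ± 22.9 CPM (SD, n = 3) describes no single library. Fmod was lower in PSC-derived cells (log2 fold change -7.86 ± 1.03, adjusted p 9.3e-05). Against Emb alone, iPax3 passed at -7.80 ± 1.52 (adjusted p 0.0036), and iPax7 at -4.04 ± 1.23 (adjusted p 0.043), which was called in 10 of 23 alternatives and fell short without Emb replicate 3 (-1.96, adjusted p 0.24), iPax7 replicate 2 or 3, or any single iPax3 or Fet library.

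Keratocan, from Kera, a corneal keratan sulfate proteoglycan that tendon also makes, was near 0 in PSC-derived cells. The 3 iPax7 libraries held 1, 0 and 0 counts and the 3 iPax3 libraries 0, 0 and 2 counts, against 1, 2 and 2 counts in Emb, which at the lower depth of Emb were 0.0773, 0.114 and 0.147 CPM. Fet held 10.4, 19.1 and 14.0 CPM and Neo 119.1, 41.5 and 208.8 CPM. Every Fet and Neo library was far above every other library. With 3 counts in PSC-derived cells against 3466 in tissue, the pooled level in tissue was 2124 times that in PSC-derived cells (exact 95% interval 726 to 10304, counting error only; adjusted p 1.9e-06). With all libraries thinned to the shallowest one, Kera and Prelp lost their call in this contrast. Over Emb alone the pooled ratio was 0.118 for iPax7 (0.0025 to 1.06) and 0.129 for iPax3 (0.0122 to 0.785), with adjusted p 0.16 and 0.13.

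Prelp, whose basic protein links basement membrane heparan sulfate to collagen, had 30, 2 and 2 counts in iPax7 and 1, 1 and 0 counts in iPax3, against 0, 3 and 1 counts in Emb. It was at 32.9, 18.1 and 19.4 CPM in Fet and 64.2, 21.7 and 90.3 CPM in Neo. The 30 counts, 1.10 CPM, are those of the library labelled iPax7 replicate 1, and the other 2 iPax7 libraries had 0.0676 and 0.114 CPM. Prelp was lower in PSC-derived cells (log2 fold change -5.74 ± 0.89, adjusted p 2e-04). Omd, whose protein osteomodulin is made in bone and dentin, was the scarcest member, with 1, 3 and 5 counts in iPax7, 2, 14 and 1 in iPax3, 1, 0 and 0 in Emb, 0, 57 and 63 in Fet and 68, 28 and 0 in Neo. Its groups overlapped and it was not called (log2 fold change -2.10 ± 1.30, adjusted p 0.25). The 0 in Fet replicate 1 allows up to 5.19 CPM at that library's depth (3 counts), more than the 1.74 and 4.49 CPM of the other Fet libraries, whereas the 0 in Neo replicate 3 allows 0.903 CPM, below the 4.81 and 4.57 CPM of the other Neo libraries.

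Ogn, the class III gene, was the exception. Osteoglycin binds collagen and is made by many connective tissues, and muscle secretes it too. Ogn was at 6.74, 299.9 and 168.3 CPM in iPax7, 54.2, 46.8 and 12.4 CPM in iPax3, 3.40, 15.8 and 0.294 CPM in Emb, 342.4, 262.8 and 276.7 CPM in Fet, and 290.9, 81.1 and 344.2 CPM in Neo. 2 iPax7 libraries lay within the range of Neo, 1 of them also within that of Fet, and the one labelled iPax7 replicate 1 lay below every iPax3 library. Between PSC-derived and tissue libraries the log2 fold change was 0.00 ± 0.66 (adjusted p 1), and without iPax7 replicate 1 it was 0.31 (adjusted p 0.78). iPax7 was higher than Emb (4.60 ± 1.27, adjusted p 0.031; 5.17 and 0.0084 without iPax7 replicate 1), although the groups overlapped through that library, and the call was lost when iPax7 replicate 2 or 3, iPax3 replicate 1 or 2, or Emb replicate 3 was left out (adjusted p 0.059 to 0.1). iPax3 over Emb was 2.53 ± 1.17 (adjusted p 0.15). Against Fet and Neo no PSC-derived group was called, with -0.89 ± 1.10 and -0.59 ± 1.10 in iPax7 (adjusted p 0.78 and 0.75) and -2.96 ± 1.18 and -2.66 ± 1.16 in iPax3 (adjusted p 0.14 and 0.11). Every iPax3 library lay below every Fet and Neo library, as for 21.2% and 18.9% of tested genes. Both iPax3 results were called in 3 of 23 alternatives: DESeq2, thinning and the compared groups alone. The fold change of 0.00 is thus a mean over positive values against Emb and negative ones against Fet and Neo.

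Each PSC-derived group was also set against each stage. Against Neo, 7 of 9 members were lower in iPax7 (8.37% of tested genes were) and 7 of 9 in iPax3 (11.3%; with RLE size factors in place of TMM the calls over all genes split 1480 higher to 2306 lower, against 1980 to 1988). Against Fet, 6 of 9 were lower in iPax7 (2.75%) and 7 of 9 in iPax3 (5.68%). The members not called were Ogn and Omd in each of these 4, joined by Bgn for iPax7 over Fet. Against Emb the picture was mixed: in iPax7 Bgn and Ogn were higher and Lum and Fmod lower (8.51% and 5.54% of tested genes), and in iPax3 Lum, Dcn, Fmod and Aspn were lower and none was higher (7.64%). The median of the members' log2 fold changes was -0.05 for iPax7 over Emb and -2.20 for iPax3 over Emb (0.36 and 0.24 over all tested genes), against -7.50 and -9.85 over Neo (0.30 and 0.20).

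For Aspn the log2 fold change was -7.84 ± 0.59 in iPax7 and -9.88 ± 0.64 in iPax3 against Fet (adjusted p 9.9e-07 and 1.8e-07), and for Dcn it was -6.90 ± 0.90 and -9.13 ± 0.99 (adjusted p 0.00025 and 2.4e-05). For Fmod it was -5.32 ± 1.30 and -9.08 ± 1.59 against Fet (adjusted p 0.036 and 0.0024), the iPax7 value being called in 14 of 23 alternatives and not without iPax7 replicate 2 or 3 or any single iPax3 or Fet library. Prelp in iPax7 was -5.73 ± 1.21 against Fet (adjusted p 0.012; 0.064 without iPax7 replicate 3). In iPax3, with 2 counts, its pooled level was 1277 times higher in Fet (352 to 10558) and 3892 times higher in Neo (1075 to 32173). The pooled Kera level was 1301 times higher in Fet than in iPax7 (233 to 51462) and 1197 times higher than in iPax3 (330 to 9902), and 8310 times (1490 to 328352) and 7645 times (2114 to 63161) higher in Neo. These exact 95% intervals cover counting error only, and with 1 or 2 counts in the PSC-derived group they are wide.

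**Figure D2:**
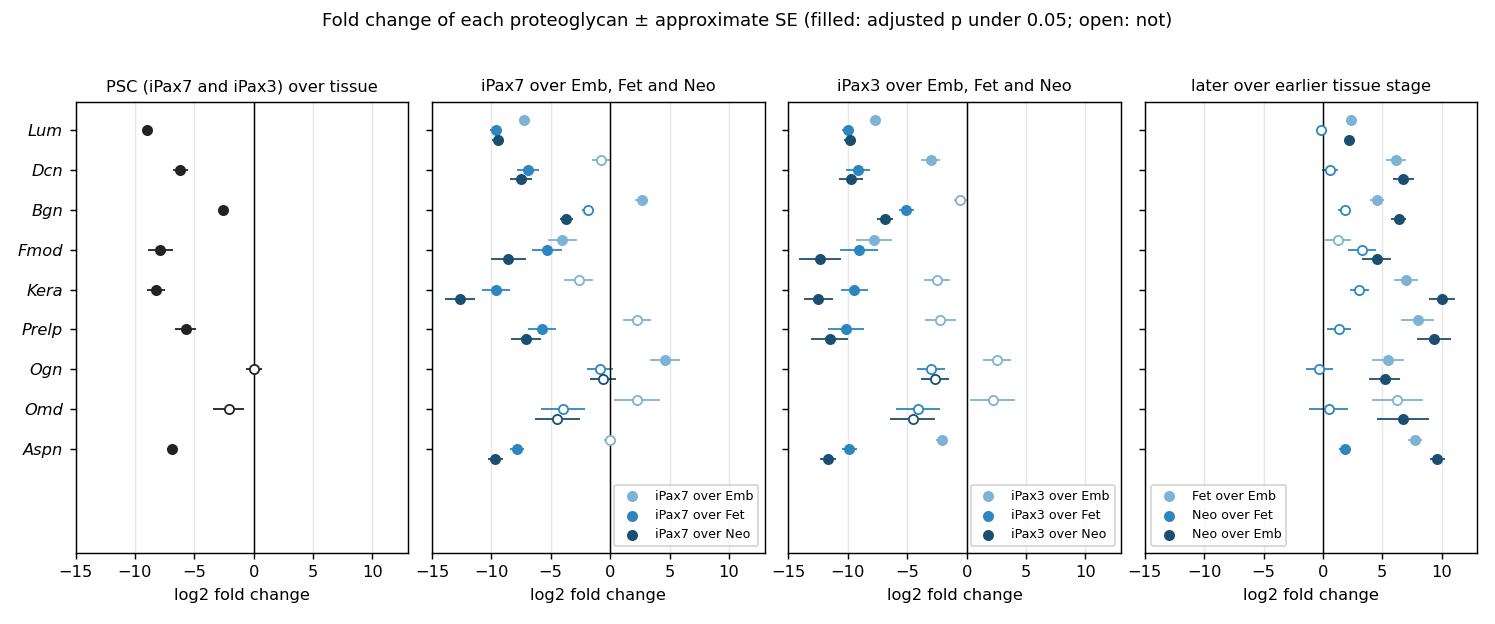
Log2 fold change of each of the 9 genes with its standard error, in 1 panel for PSC (iPax7 and iPax3) over tissue, 1 for iPax7 over each stage, 1 for iPax3 over each stage and 1 for later over earlier tissue stages. Filled points passed the adjusted p of 0.05. Ogn lies at 0.00 where Lum lies at -8.96, and points of Kera, Prelp and Omd that rest on 3 or fewer counts in a group depend on the prior count.

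iPax7 and iPax3 were then compared with each other. Bgn was the only one of the 9 called: it was higher in iPax7 by 3.19 ± 0.56 on the log2 scale (adjusted p 0.044), and 0.0569% of tested genes were called higher. That call held in 9 of 23 alternatives, with the fold between 2.91 and 3.62 and the adjusted p up to 0.34. Among single libraries it was lost without any iPax3 or Fet library, iPax7 replicate 1 or 2, Emb replicate 3 or Neo replicate 1, and without the library labelled iPax7 replicate 1 the fold was 2.97 (adjusted p 0.07). For 5 of the 9 members (Lum, Dcn, Bgn, Prelp and Aspn) each iPax7 library was above each iPax3 library, as was the case for 8.55% of tested genes. Beside Bgn, the fold was 2.23 ± 0.78 for Dcn (adjusted p 0.52), 2.04 ± 0.49 for Aspn (adjusted p 0.21) and 0.44 ± 0.40 for Lum (adjusted p 1). Prelp had 34 counts in iPax7 and 2 in iPax3, a pooled ratio of 31.3 (8.02 to 269), with 30 of the 34 in iPax7 replicate 1 (adjusted p 0.31). Fmod and Ogn overlapped between the groups, at 3.76 ± 1.39 and 2.07 ± 1.13 (adjusted p 0.62 and 0.96). Without iPax7 replicate 1, Aspn was at 0.98, Prelp at 2.22 and Ogn at 2.62. The pluripotency markers that set this library apart were not tested for their part in these differences.

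Across the 3 tissue stages, the family rose steeply between E10.5 and E14.5 and less clearly afterwards. Neo came from Pax7-ZsGreen mice, whereas Emb and Fet came from My5Cre Rosa26YFP mice. In comparisons with Neo, stage therefore cannot be told apart from mouse line and reporter. In Fet over Emb, 7 of 9 members were higher and none lower (2.89% of tested genes were called higher; median of the members 6.13, of all genes 0.18). Aspn changed by a log2 fold change of 7.78 ± 0.59 (adjusted p 2.9e-06), Prelp by 7.97 ± 1.39 (adjusted p 0.0041), Kera by 6.96 ± 1.01 (adjusted p 0.00096), Dcn by 6.13 ± 0.87 (adjusted p 0.00094) and Bgn by 4.54 ± 0.60 (adjusted p 5e-04). Lum, high already in Emb, changed by 2.34 ± 0.36 (adjusted p 0.0014). The call for Ogn (5.49 ± 1.33, adjusted p 0.037) held in 12 of 23 alternatives and was lost without any single Fet or iPax3 library, iPax7 replicate 2 or 3, or Emb replicate 3 (adjusted p 0.059 to 0.088). Fmod was not called (1.28 ± 1.10, adjusted p 0.57), its Emb libraries overlapping Fet, and Omd, with 120 counts in Fet against 1 in Emb, had a pooled ratio of 111 (19.6 to 4434; adjusted p 0.1).

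Between Neo and Fet, Aspn was the member called (log2 fold change 1.82 ± 0.45, adjusted p 0.041; 1.37% of tested genes were called higher), and leaving out any Neo, Fet or iPax3 library ended the call (adjusted p 0.051 to 0.19). Each Neo library exceeded each Fet library for 4 of 9 members, Aspn, Bgn, Fmod and Kera (12.7% of tested genes). Bgn was at 1.82 ± 0.53 (adjusted p 0.083), Kera at 3.06 ± 0.80 (adjusted p 0.054) and Fmod at 3.25 ± 1.17 (adjusted p 0.15). Lum at -0.17 ± 0.34, Dcn at 0.60 ± 0.69 and Ogn at -0.30 ± 1.10 overlapped between the stages. In Neo over Emb, 9 of 9 members were higher (11.7% of tested genes were), from 2.17 ± 0.35 for Lum (adjusted p 7e-04) to 9.60 ± 0.63 for Aspn (adjusted p 9.7e-08) and 10.01 ± 1.12 for Kera (adjusted p 2.4e-05); the call for Omd, on 96 counts against 1, held in 7 of 21 alternatives. Neo replicate 2 was the lowest Neo library for 8 of 9 members, Omd being the exception.

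Markers of other cell types differed between the stages too. Besides the endothelial sum given above, the immune sum was 0.229 to 2.24 CPM in Emb, 64.0 to 107 CPM in Fet and 226.3 to 747.6 CPM in Neo. The fibroblast sum was 494.8 to 705.8 CPM in Emb, 1446 to 1532 CPM in Fet and 1668 to 3074 CPM in Neo, and the tendon and cartilage sum was 492.8 to 725.2 CPM in Emb, 1093 to 1669 CPM in Fet and 1617 to 2825 CPM in Neo. The pericyte and smooth muscle sum was 203.2 to 259.6 CPM in Emb, 418.3 to 581.0 CPM in Fet and 805.2 to 1279 CPM in Neo. The myogenic sum, lowest in Neo, was 553.2 to 1573 CPM in Emb, 869.8 to 1302 CPM in Fet and 322.0 to 499.4 CPM in Neo, and the neural sum, highest in Emb, was 335.8 to 446.2 CPM in Emb, 118.7 to 157.4 CPM in Fet and 73.9 to 259.8 CPM in Neo. Epithelial and mesothelial markers summed to 34.7 to 81.1 CPM in Emb, 5.19 to 32.7 CPM in Fet and 4.90 to 7.22 CPM in Neo. Their part in the members' rise was not tested.

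Per length of exon, Ogn led the mix of members in 5 of the 6 PSC-derived libraries, Lum in Emb and Aspn in Neo. Ogn made up 88.4% and 86.5% of the summed CPM per kb of the 9 genes in iPax7 replicates 2 and 3 and 88.6%, 90.5% and 79.3% in iPax3. In the library labelled iPax7 replicate 1 it made up 11.6%, with Bgn at 75.3%. In Emb, Lum led with 72.2%, 77.1% and 73.0%. In Fet, Aspn (33.5%, 27.7% and 28.3%), Lum (24.6%, 33.4% and 30.1%) and Ogn (22.1%, 18.9% and 20.8%) shared the lead. In Neo, Aspn made up 48.5%, 54.7% and 42.5%, and Lum, Bgn and Fmod had 6.80% to 19.6% each. The summed level per kb was 22.6, 132.3 and 75.8 in iPax7, 23.8, 20.1 and 6.08 in iPax3, 35.5, 36.9 and 57.4 in Emb, 603.2, 540.9 and 518.3 in Fet and 1552, 641.8 and 1545 in Neo. By this sum, iPax7 replicates 2 and 3 lay above Emb and below Fet, with a single gene carrying most of it.

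**Figure D3:**
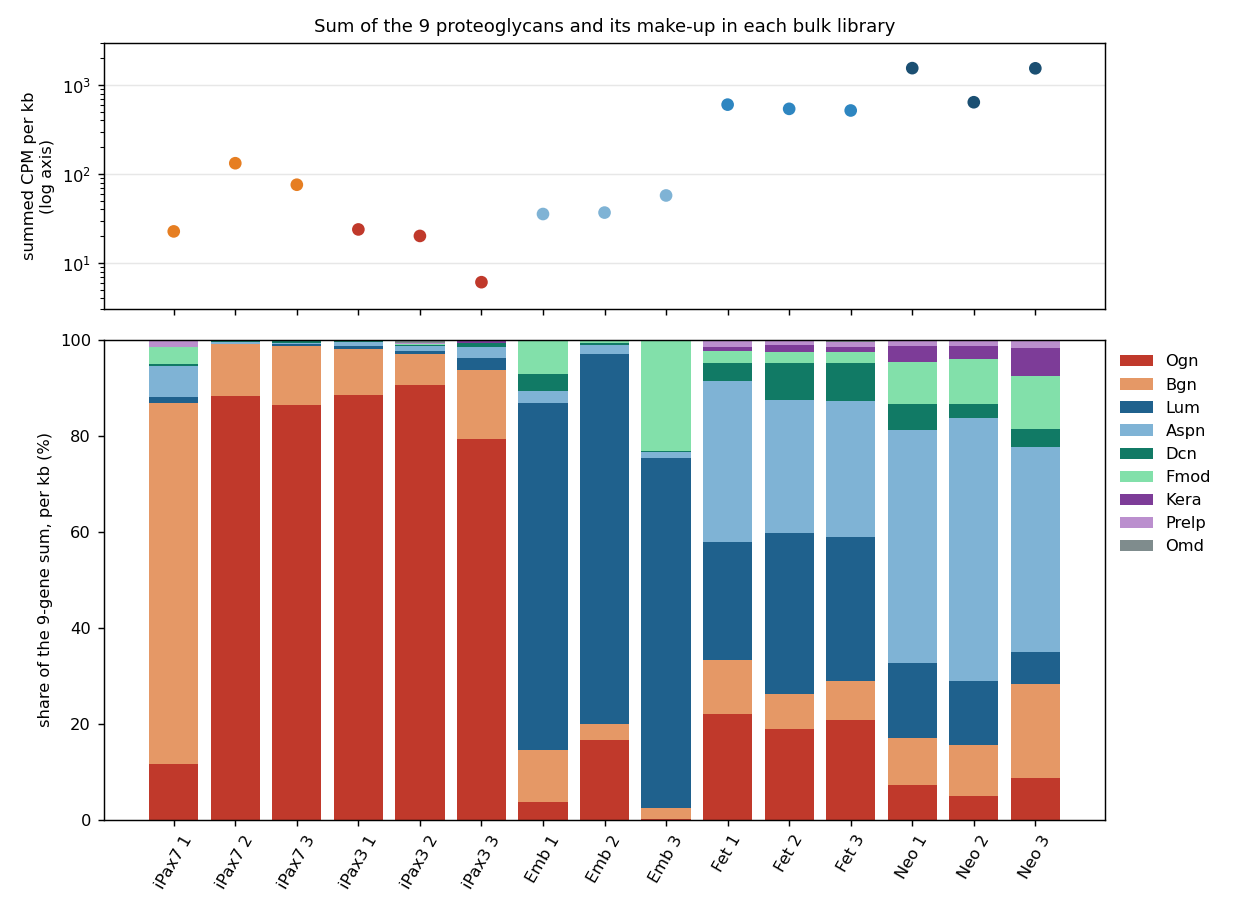
The upper panel gives the summed level of the 9 genes (CPM per kb of exon, log axis), 1 point per bulk library, and the lower panel the share of each gene in that sum, in percent. Ogn takes 79.3% to 90.5% in 5 of the 6 PSC-derived libraries, Lum takes 72.2% to 77.1% in Emb, and Aspn takes 42.5% to 54.7% in Neo.

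Mean levels per kb gave the order within each group. In iPax7, Ogn (61.7 CPM per kb) and Bgn (13.5) led and the other 7 members were at 0.715 or below. In iPax3, Ogn (14.7) and Bgn (1.48) led and the others were at 0.173 or below. In Emb the order was Lum (32.0), Fmod (5.27), Ogn (2.53) and Bgn (2.13), of which Fmod, Ogn and Bgn overlapped between libraries. In Fet it was Aspn (166.3), Lum (161.6) and Ogn (114.6), followed by Bgn (49.6), Dcn (35.3) and Fmod (12.9), and Prelp (6.48) and Kera (6.35) differed by less than their spread, as did Aspn and Lum. In Neo it was Aspn (587.3), Bgn (174.7), Lum (144) and Fmod (122), of which Bgn, Lum and Fmod overlapped between libraries, with Omd last at 1.39.

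Ogn was set beside Myog, a regulator of muscle differentiation, and beside Col12a1, a gene for a collagen that sits on fibrils, which is among the genes of most similar pattern. Myog was chosen after its values were seen. Myog was at 1.58, 563 and 517 CPM in iPax7 and 96.6, 72.4 and 30.4 CPM in iPax3, so that the iPax7 library with low Ogn was also the one with low Myog. Col12a1 was at 49.5, 1080 and 438 CPM in iPax7 and 331, 218 and 110 CPM in iPax3, in the same order of libraries within each group as Ogn. In tissue the levels of Ogn and Myog did not run together: Myog was at 108, 610 and 784 CPM in Emb, where Ogn was lowest, and at 104, 212 and 86.7 CPM in Neo. Likeness was measured as the root mean square difference of centred log2 CPM over the 15 bulk libraries, among 12275 genes with an SD of at least 1. By this measure Adamtsl3 (0.83), Col12a1 (1.07) and Copz2 (1.28) were most like Ogn, against a median of 3.22 over all candidates. The same libraries carry every one of these values, so they are a description.

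**Figure D4:**
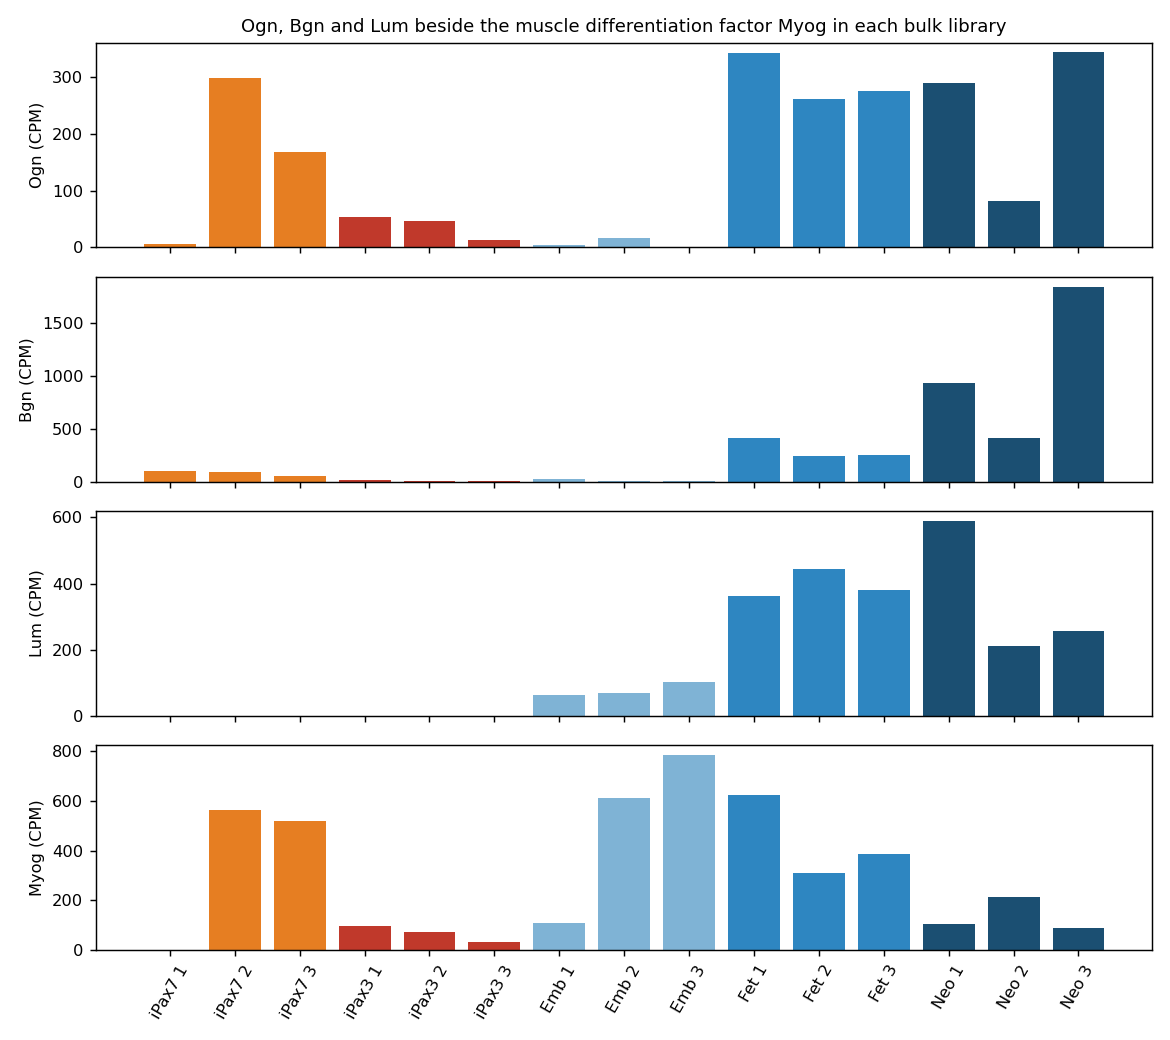
Levels of Ogn, Bgn, Lum and Myog in CPM, 1 panel per gene and 1 bar per bulk library, coloured by group. iPax7 replicate 1 is low in Ogn (6.74 CPM) and Myog (1.58 CPM), while Emb libraries have Myog at 108 to 784 CPM and Ogn at 0.294 to 15.8 CPM.

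The same measure was taken for the other members. Lum was closest to the cartilage link protein gene Hapln1 (0.81), Meox2 (0.87) and Col2a1 (0.90), with a candidate median of 5.02. Aspn was closest to the tenascin gene Tnxb (0.62), Adam33 (0.86) and Thbs4 (0.93; median 5.13), and Kera to Tnxb (0.71), Myct1 (0.75) and Ptprc (0.89; median 4.65). Dcn was closest to Pamr1 (0.86), Cd34 (0.99) and Zcchc5 (1.04; median 4.36), and Bgn to AI838599 (0.83), Efhd1 (0.97) and Esr1 (0.98; median 3.19). Fmod was closest to the endothelial tight junction gene Cldn5 (0.68), Itgbl1 (1.03) and Aplnr (1.13; median 4.89), and Prelp to the lymphatic gene Lyve1 (0.86), Tnn (0.88) and Ctsk (0.93; median 4.32). Omd, with few counts, was closest to Chrm2 (0.86), Clec4a3 (0.87) and Gm10710 (0.88; median 2.82). Among members, Kera and Aspn were the closest pair (1.01), then Kera and Prelp (1.14) and Prelp and Aspn (1.15), and Lum and Ogn differed by 4.73.

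The genes around the family were counted from lists compiled for their roles. Of 11 genes for collagens that these proteins bind, 10 were lower in PSC-derived cells than in tissue, among them Col2a1 (log2 fold change -7.62 ± 0.39, adjusted p 2.7e-09), Col1a2 (-5.31 ± 0.38, adjusted p 9.2e-08) and the collagen VI genes Col6a2 (-5.58 ± 0.44) and Col6a3 (-6.58 ± 0.51), with a list median of -5.16. Over all tested genes, 11.7% were lower in that contrast. In iPax7 over iPax3, Col1a2 was the collagen gene called (4.15 ± 0.52, adjusted p 0.005; 0.0569% of tested genes were higher). In Fet over Emb, 9 of 11 were higher (2.89% of tested genes were), with Col6a1 at 5.48 ± 0.64 (adjusted p 0.00016), and in Neo over Emb 11 of 11 (11.7%). Of 20 matrix partners and proteases, 8 were lower and 1 higher in PSC-derived cells, led by Tnxb (-7.31 ± 0.41, adjusted p 1e-08), the elastin gene Eln (-8.03 ± 0.68, adjusted p 1.1e-06), the fibrillin gene Fbn2 (-5.08 ± 0.53) and the collagen crosslinking enzyme gene Lox (-2.66 ± 0.38). 6 of the 20 were higher in Fet over Emb and 14 in Neo over Emb.

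Genes that build the sugar chains were counted next. Of 21 tested genes for the linker and the chondroitin and dermatan sulfate chains, 7 were lower and 1 higher in PSC-derived cells (11.7% and 16.4% of tested genes). The list median was -0.50 against 0.29 over all tested genes. The smallest adjusted p was that of Xylt1, which encodes a xylosyltransferase that starts the chain (-4.97 ± 0.61, adjusted p 2.2e-05): it was at 2.53, 0.980 and 4.21 CPM in iPax7 and 1.05, 3.17 and 0.264 CPM in iPax3, against 19.8, 66.9 and 59.4 CPM in Emb, 74.4, 25.1 and 20.9 CPM in Fet and 86.9, 152 and 127 CPM in Neo. Of 6 tested keratan sulfate genes 2 were lower, B4galt1 (-0.87 ± 0.22, adjusted p 0.007) and the sulfotransferase gene Chst1 (-3.98 ± 1.13, adjusted p 0.014). Of 4 genes for tyrosine sulfation, a modification of several family members, the sulfate donor gene Papss2 was lower (-4.88 ± 0.65, adjusted p 4.7e-05). Of 18 receptors and ligands, 3 were lower, among them Kdr (-6.69 ± 1.11, adjusted p 0.00059) and Tgfb2 (-1.88 ± 0.36, adjusted p 0.0012), and 4 were higher, among them the collagen receptor gene Itga2 (3.17 ± 0.61, adjusted p 0.0012) and Cd44 (2.09 ± 0.48, adjusted p 0.0048), shares near the 11.7% of all tested genes that were lower and the 16.4% that were higher. Kdr encodes Flk1, whose absence was the criterion of the PSC-derived sort, so its value is no finding.

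In Fet over Emb, 1 of the 21 linker and chain genes was higher, Csgalnact1 (6.99 ± 1.56, adjusted p 0.02; 2.89% of tested genes were higher). In Neo over Emb, 2 linker and chain genes were higher and 1, the epimerase gene Dse, was lower (-1.56 ± 0.44, adjusted p 0.022), and 2 keratan sulfate genes were higher. Over all tested genes 11.7% were higher and 8.43% lower in that comparison, so the linker and chain counts did not exceed the background. Receptors and ligands were higher in 4 of 18 for Fet over Emb (2.89% of tested genes) and 10 of 18 for Neo over Emb (11.7%). Of 10 further family genes 7 passed the filter, and in PSC-derived cells Ecm2, the neighbour of Aspn, was lower (-5.20 ± 0.81, adjusted p 2e-04) and Chadl was higher (4.74 ± 1.13, adjusted p 0.0078). Epyc, the neighbour of Kera, was at 0, 0.743 and 2.28 CPM in iPax7, 0.368, 0.405 and 0.105 CPM in iPax3 and 10.4, 13.9 and 12.7 CPM in Fet, and had 0 counts in every Emb and Neo library. Epyc and Kera lie 30376 bases apart, and Kera was present in both Fet and Neo.

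Single cells of iPax3 and of adult muscle gave a further view of 1 sample each, with no replicate and no test between them. After filtering, 2931 iPax3 cells (median 11716 UMIs) and 579 adult cells (median 10765 UMIs) remained, and they shared 1 barcode. The other matrix, labelled as a second iPax3 sample, held all 2931 iPax3 barcodes under one suffix and 577 of the 579 adult barcodes under another, so it was not used as a replicate. Of iPax3 cells, 0.819% had 2 or more UMIs of immune markers and 13.1% of endothelial markers, against 98.3% and 91.9% of adult cells. In adult free RNA (barcodes with few UMIs, defined below), the immune marker Lyz2 was at 799 CPM, against 804.4 CPM in cells. The endothelial markers Pecam1 and Cdh5 were at 51.7 and 37.9 CPM, against 37.8 and 26.2 CPM in cells. Ptprc was higher in cells, at 6.58 CPM against 3.44 CPM from 1 UMI. The adult shares are therefore not counts of immune or endothelial cells. No doublet caller was run. Each UMI stands for 1 captured transcript end, so these levels are not divided by length.

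Ogn was the member with most UMIs in iPax3 cells, at 10.02 CPM of all UMIs (exact Poisson 95% interval 9.08 to 11.03, counting error only), from 417 UMIs in 344 cells. In adult cells it was at 74.5 CPM (68.6 to 80.8). Free RNA, read from barcodes with at least 10 UMIs and under 0.1 of the cell limit, had Ogn at 5.03 CPM (3.998 to 6.26) in the iPax3 sample, below the cells, and at 110.2 CPM (75.4 to 155.6) in the adult sample, whose interval overlaps that of the cells. A UMI of Ogn was found in 11.7% of iPax3 cells and in 54.4% of adult cells. Thinned to 2000 UMIs per cell, with no cell left out, the shares were 2.12% and 14.3%. No cell type that should lack Ogn was marked in the iPax3 sample; in the 384 iPax3 cells with 2 or more endothelial marker UMIs (median 21890 UMIs) Ogn was at 5.09 CPM (3.76 to 6.75).

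Within iPax3 cells, Ogn was at 11.6 CPM (10.3 to 13.01) in the 1517 cells with a Myog UMI, against 7.86 CPM (6.60 to 9.29) in the 1414 without, at median depths of 13160 and 10724 UMIs. It was at 14.0 CPM (11.9 to 16.4) in the 738 cells with a Myod1 UMI, against 8.50 CPM (7.50 to 9.61) in the 2193 without. Cells with and without a Pax3 UMI overlapped, at 10.1 and 9.75 CPM. In the authors' deposited table of 7 iPax3 clusters, the mean Ogn UMI count was 0.281 in cluster 1, where Myog had 5.68, and 0.0262 in cluster 2, where Myog had 0.453. In the authors' deposited table the other 5 clusters lay between 0.0692 and 0.170, with Myog between 0.405 and 0.901. Cluster 4 had Ogn at 0.151 with Myog at 0.498, near that of cluster 2. Cluster 6, with the lowest Myog (0.405), had Ogn at 0.0692. Cells are not replicates, so these intervals cover counting error within 1 sample.

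Bgn was at 1.75 CPM (1.38 to 2.21) in iPax3 cells, from 73 UMIs, and at 193.2 CPM (183.7 to 203.2) in adult cells. In iPax3 free RNA it was at 2.36 CPM (1.67 to 3.24), so the cells did not exceed the free RNA. Myog, too, was at 123.6 CPM in iPax3 cells and 123.2 CPM in free RNA, so this does not mark Bgn as background. Dcn had 6 UMIs in iPax3 cells, 0.144 CPM (0.0529 to 0.314), below its free RNA of 1.62 CPM (1.06 to 2.37). Lum, Fmod, Kera and Prelp had 0 UMIs in 2931 cells, which allows up to 0.0721 CPM and a UMI in up to 0.102% of cells (3 counts of the total, counting error only). Omd had 3 UMIs and Aspn 1.

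In adult cells the order was Dcn, Prelp, Bgn, Fmod, Ogn and Lum, at 858 CPM (837.7 to 878.6), 216.4 (206.3 to 226.9), 193.2, 140.3 (132.1 to 148.8), 74.5 and 33.3 CPM (29.4 to 37.5). Aspn was at 3.79 CPM (2.56 to 5.42), Omd at 2.28 CPM (1.35 to 3.60), and Kera had 2 UMIs in 1 cell. Aspn was the highest of the 9 in bulk Neo, but method, age and the muscles sampled differ, so the levels are not comparable. Adult free RNA held Dcn at 891.9 CPM (786.6 to 1007), Prelp at 265.2 CPM (209.3 to 331.4), Bgn at 234.2 CPM (181.8 to 296.9), Fmod at 113.6 CPM (78.2 to 159.6) and Lum at 51.7 CPM (28.9 to 85.2). Each of these intervals overlaps that of the cells. The shares of adult cells with a UMI were 96.9% for Dcn, 84.1% for Prelp, 82.9% for Bgn, 68.7% for Fmod and 27.3% for Lum. Pax7, whose reporter these mice carry, was itself at 146.5 CPM in adult cells and 182.5 CPM in free RNA. The comparison therefore cannot tell background from expression, and the shares are assigned to neither. Of the 579 cells, 206 had 10 or more Dcn UMIs, up to 364. The 58 cells with most UMIs of a gene held 62% of the UMIs of Lum, 48.8% of Fmod, 43.3% of Dcn, 39.2% of Ogn, 35.4% of Prelp and 34.8% of Bgn, with no correction for the depth of the cells. Dcn was at 783.1 CPM (761.9 to 804.8) in the 417 cells with a Myod1 UMI, against 1225 CPM (1166 to 1286) in the 162 without (median depths 12640 and 6915 UMIs), and Lum was at 25.6 CPM (21.9 to 29.8) against 70.9 CPM (57.4 to 86.7). Bgn did not differ beyond its interval, at 190.9 and 204.5 CPM.

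**Figure D5:**
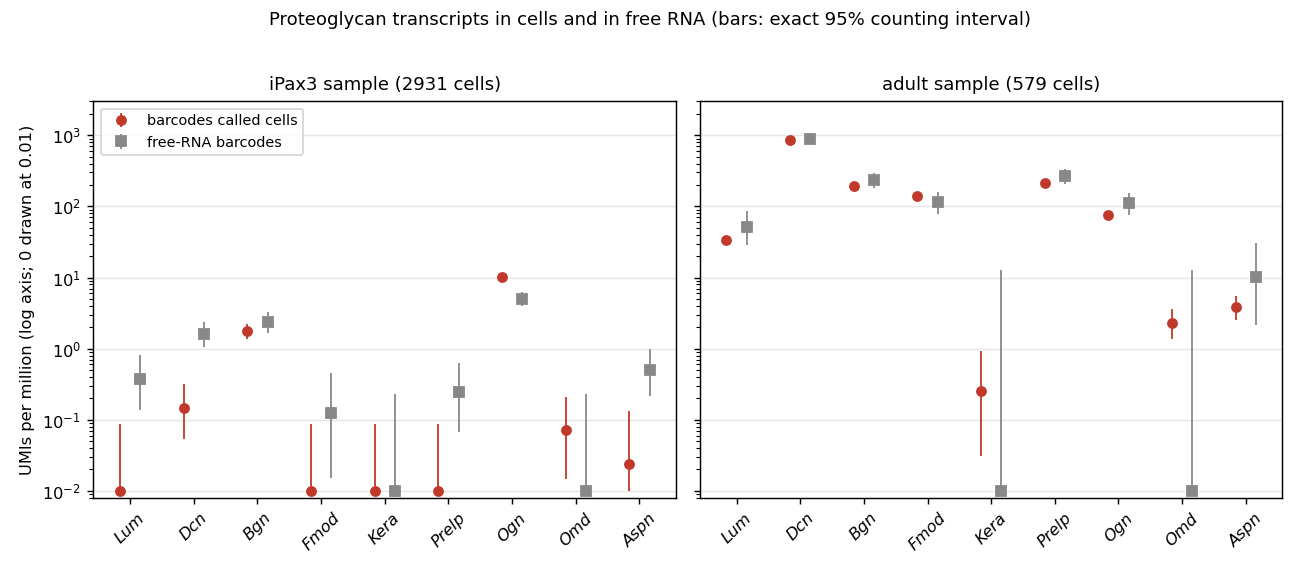
Level of each of the 9 genes over all cells of the iPax3 sample and of the adult sample, in CPM of UMIs on a log axis with exact 95% Poisson intervals, beside the level in free RNA of the same sample. Ogn is the member whose iPax3 cells (10.02 CPM) lie above their free RNA (5.03 CPM), and no adult member's interval lies clear of that of the adult free RNA.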

How the data were processed

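Bulk RNA was measured in 15 libraries (3 per group) and droplet single-cell RNA in iPax3 and adult samples. Per the submitters' processing notes, the authors used CASAVA 1.8 and HISAT2 2.0.2, the build mm10 and featureCounts 1.4.6 of Subread, and deposited raw read counts per gene. For single cells they used CASAVA 1.8 and Cell Ranger 2.2.0 and deposited UMI counts per barcode. The authors' deposited cluster tables hold a signal (the mean UMI count of a cluster's cells, scaled), its log2 fold change and a p-value adjusted over cells, of which the signal is printed and the others are not, since cells are not replicates. Annotation release, strand setting and multi-mapping are not given in the sources used here.

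Of 47728 rows, 28692 were named from the single-cell gene table, 18884 from GENCODE M21 and 152 stayed unnamed. After filterByExpr (17571 genes kept) and TMM scaling, edgeR 4.0.16 (limma 3.58.1, R 4.3.3) fitted all 15 libraries by quasi-likelihood with robust estimation and a mean for each group. The 11 contrasts were adjusted by Benjamini-Hochberg across the tested genes, at 0.05. Standard errors were derived from the fold change and its F statistic and are approximate. CPM per kb used exon union lengths. Log2 CPM used a prior count of 2. Every contrast shares libraries with others. Counts of 2 replicates differed beyond sampling noise in every pair (chi-square over its degrees of freedom, 8.02 to 510).

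A barcode was taken as a cell if it reached 10% of the 99th percentile among the 3000 largest, had at least 500 UMIs and under 10% mitochondrial UMIs. Intervals and floors (3 counts) cover counting error only. Scripts ran in Python 3.11.15 (numpy 2.4.6, pandas 2.3.3, scipy 1.17.1, matplotlib 3.10.9), and the fit was tested on simulated counts. The alternatives were RLE size factors, other filters, DESeq2 1.42.0, a replicate block, no robust estimation, thinning to the shallowest library, fits of the compared groups alone, each library left out, and other cell filters. The members and gene lists were chosen with earlier results of these data known. Named were all 9 members, per list up to 4 genes by smallest adjusted p, and the 3 most similar genes per member.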

Additional observations from a re-analysis of the deposited data

Results flagged for a closer look

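The matrix labelled as a second iPax3 sample enters none of the comparisons, and the barcodes in it that carry the iPax3 suffix held UMIs of Ogn, Bgn and Dcn above the limit that a count of 0 allows (0.0195 CPM, 3 counts). In these 3327 cells (median 39956 UMIs), Ogn was at 14.02 CPM (13.43 to 14.62; 2153 UMIs, 39.25% of cells), against 9.986 CPM (9.2 to 10.82) in free RNA of the same suffix. Bgn was at 1.888 CPM (1.677 to 2.118; 290 UMIs) and Dcn at 0.2474 CPM (0.1751 to 0.3395; 38 UMIs). Free RNA held Bgn at 2.429 CPM (2.05 to 2.859) and Dcn at 0.7205 CPM (0.5214 to 0.9705), so neither exceeded the free RNA. All 2931 barcodes of the first iPax3 matrix are among them, so the values are not those of an independent sample.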

How the results depend on the processing

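Of 99 member results (9 genes in 11 comparisons), 60 were called, 43 of them under every alternative that gave a value, 17 lost the call under at least 1, and 13 uncalled results were called under at least 1. Of 2242 alternative values, 18 reversed, and the cause was not tested. Deviations of same-numbered libraries from their group means had correlations of -0.331 to 0.0767 between groups. Differently numbered libraries were not correlated for reference, so these values do not settle whether replicate numbers pair the samples. The replicate block left the count for iPax7 over iPax3 at 1 and moved that for iPax7 over Emb to 2, against 4. Over all tested genes, the block called 0.0398% and 8.63% in these comparisons, against 0.074% and 14% without it.

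Percentages here are the share of all tested genes called in either direction in the same setting. For iPax7 over iPax3 (1 member called, 0.074%), 0 were called with no low-count filter (0.0751%) and with no robust estimation (0.0626%). Thinning to the shallowest library gave 0 too (0.145%), as did a fit of the 2 groups alone, where no gene was called. DESeq2 called 3 (1.5%), and fits with a library left out called 0 to 1 (0.016% to 0.216%). For iPax3 over Emb (4 called, 17%), 2 were called when thinned (23.7%) and 1 in the 2 groups alone (17.5%). For iPax7 over Emb (4 called, 14%), 2 were called with no low-count filter (6.26%) and 1 in the 2 groups alone (1.63%). With a library left out, 2 to 4 were called (6.88% to 25.7%). For Neo over Fet (1 called, 2.37%), 2 were called with RLE size factors (2.45%), with no low-count filter (1.46%) and with a minimum of 1 CPM in 3 libraries (2.69%). DESeq2 called 3 (10.9%), the thinned fit 4 (6.68%) and the 2 groups alone 4 (8.59%). With a library left out, 0 to 2 were called (0.465% to 4.06%).

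Reversed log2 fold changes were all of uncalled results. For Neo over Fet, Lum was at 0.09 without Neo replicate 2 and 0.01 without Neo replicate 3, and Ogn at 0.11 without Neo replicate 2; with a library left out they ranged down to -0.77 and -0.66. For iPax7 over Emb, Dcn was at 0.43 when thinned and 1.01 without Emb replicate 1, and Aspn at 0.24, 0.43 and 0.12 without iPax7 replicate 2, iPax7 replicate 3 and Emb replicate 1, with lowest values of -1.37 and -1.09. For iPax3 over Emb, Bgn was at 0.26 without Emb replicate 1 (lowest value -0.94) and Kera at 1.77 when thinned. For iPax7 over iPax3, Kera was at 0.05 with DESeq2, 0.02 with the replicate block, 1.67 without iPax3 replicate 3, and 0.34 and 0.20 without iPax7 replicates 2 and 3 (lowest value -1.87), and Omd at -0.38, -0.40 and -0.83 without iPax3 replicate 1, iPax3 replicate 3 and iPax7 replicate 3 (highest value 1.95).

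The summed level of the 9 genes in iPax3 single cells was 12.01 CPM, and 7.279 CPM in cells with under 5% mitochondrial UMIs, 13.67 CPM without cells with 2 or more immune, endothelial or neural UMIs and 16.2 CPM in the matrix with both samples. The second of these left 2 adult cells, so no adult level is given for it. Depth limits Kera, Prelp and Omd most, which had 3, 36 and 26 counts over all PSC-derived libraries. Lum and Fmod followed with 90 and 94 counts, so their levels there rest on few counts too. Fet replicate 1 was the shallowest library, at 516504 counts.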
